A study of Mus musculus with 2 samples.

Results

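In the small RNA count tables of the embryonic mouse heart, 10 of 1973 miRNA rows held nearly all of their reads on the strand opposite to the gene they are named for. They are Gm25301, Gm25927, Gm24083, Gm24321, Gm25252, Mir299b, Mir142b, Mir497b, Gm25750 and Gm24111. They were chosen from the measured counts, by at least 100 reads on the opposite strand and more reads there than on the row's own strand in both libraries. The rule gave 10 of 1973 rows (0.507%), and because it used these counts, strand and level are given as descriptions with no test. Each of the 10 rows lies across from the hairpin of a known miRNA on the other strand. These miRNAs are Mir378a, Mirlet7e, Mir191, Mir409, Mir376a, Mir299a, Mir142, Mir497, Mir380 and Mirlet7f-1, in the same order, and none of them has a row of its own in the tables. The 10 rows are therefore described here together with the miRNAs they face.

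The series holds 1 group of 2 libraries from hearts of strain B6NCrl embryos at 14.5 days, labelled biological replicates 1 and 2, with no treatment, mutation or control group. The labels describe each as a single heart, collected on day 15 and day 17 of July, while also giving the sex as males and females pooled. Both carry the label pup 1, pregnant 2, and the same donor, so the spread between the libraries may be partly technical. The libraries held 8150499 and 7269505 reads, of which 4327424 and 3839984 were assigned to miRNA rows on the row's own strand and 214416 and 184127 on the opposite strand. Reads mapping to several places, 30.6% and 30.1% of each library, are outside all rows. The cardiomyocyte miRNAs Mir208b (66568 ± 359 CPM, SD, n = 2) and Mir208a (7962 ± 2009 CPM) were abundant, as was the endothelial Mir126a (72473 ± 3594 CPM), while Mir1a-1 and Mir133a-1 had at most 13 reads per library and the neural Mir124a-1 had 0. These last 3 miRNAs are encoded at several loci in the mouse, so their reads may be among those mapping to several places, and the counts do not give the level of the miRNA. Mir137, also listed as a neural miRNA, was detected, with 57 reads in replicate 1 and 329 in replicate 2 (13.2 and 85.7 CPM).

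A miRNA is cut from a hairpin in a longer primary transcript, first in the nucleus and then in the cytoplasm, and a short RNA from either arm of the hairpin can enter the silencing complex. It recognises its targets mainly through the seed, which spans bases 2 to 8 from its 5′ end. Because the hairpin is an inverted repeat, the complementary strand of the same DNA also resembles a hairpin, and annotations can list a miRNA gene on each strand of a locus. A read counts for a given strand only if its own orientation is known, as it is in tables like these that give each strand separately.

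Some mature sequences of the faced miRNAs are shown because they are the RNAs that belong to the strand on which the reads lay. Not every arm is listed, and the choice does not rest on the reads. The Mir299a hairpin is shown further below. RefSeq (GRCm38.p6) sequences were matched for 9 of the 10 faced miRNAs, all but Mir378a. They are written 5′ to 3′ with the seed in capitals.
let-7e-5p: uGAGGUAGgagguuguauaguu
let-7f-5p: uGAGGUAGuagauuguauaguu
miR-497a-5p: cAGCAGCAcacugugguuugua
miR-191-5p: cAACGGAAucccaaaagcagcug
miR-142a-5p: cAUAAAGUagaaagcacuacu
miR-142a-3p: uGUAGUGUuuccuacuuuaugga
miR-409-3p: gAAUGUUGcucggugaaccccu
miR-376a-3p: aUCGUAGAggaaaauccacgu
miR-380-5p: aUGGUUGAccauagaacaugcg
miR-380-3p: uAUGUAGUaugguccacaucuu
let-7e-5p, from chr17:17830366-17830387 (plus strand), and let-7f-5p, from chr13:48537889-48537910 (minus strand), share the let-7 seed GAGGUAG. miR-497a-5p, from chr11:70234730-70234751 (plus strand), carries AGCAGCA, the seed of the miR-15/16 family. The 2 arms of Mir142 and the other sequences shown share no seed with each other. The tables give 1 count per hairpin, so the share of each arm was not measured.

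Of the 18 mature sequences of these 9 hairpins, 17 occur in no other miRNA hairpin among the 2202 of the GENCODE M21 annotation. The exception was let-7f-5p, which Mirlet7f-2 also encodes. Of the 9 hairpins, 8 shared no stretch of 18 bases with any hairpin apart from the row that lies across from them, while the Mirlet7f-1 hairpin shared 8 of its 72 such stretches. Reads of let-7f-5p itself fit 2 loci, and the tables list reads that map to several places apart from the rows. The value for Mirlet7f-1 is therefore uncertain. The other 8 faced miRNAs with a sequence do not share whole mature sequences within this set of hairpins. Mir378a was not compared, and the rest of the genome was not searched.

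The rows and the faced hairpins occupy the same DNA. The row covered the whole faced hairpin in 9 of 10 cases, and rows were 49 to 125 bases long with a median of 114. Gm25301 (ENSMUSG00000093026.1) spans chromosome 18, 61397813 to 61397925 on the plus strand, and Mir378a spans 61397835 to 61397900 on the minus strand, in an intron of Ppargc1b. Ppargc1b encodes a transcriptional coactivator of mitochondrial and oxidative metabolism. Gm25927 (ENSMUSG00000092799.1) spans chromosome 17, 17830343 to 17830459 on the minus strand, across from Mirlet7e at 17830352 to 17830444 in an intron of Spaca6. Gm24083 (ENSMUSG00000092915.1) spans chromosome 9, 108568295 to 108568414 on the minus strand, across from Mir191 at 108568319 to 108568392, which overlaps an exon of the long noncoding RNA 4833445I07Rik. All coordinates are in mm10.

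On chromosome 12, Mir299b (ENSMUSG00000093291.1, 109710645 to 109710693), Gm25750 (ENSMUSG00000093224.1, 109711779 to 109711890), Gm25252 (ENSMUSG00000093218.1, 109723756 to 109723875) and Gm24321 (ENSMUSG00000093089.1, 109743158 to 109743237) lie on the minus strand. Their partners Mir299a, Mir380, Mir376a and Mir409 lie on the plus strand in the imprinted Dlk1-Dio3 locus, whose miRNAs are expressed from the maternal chromosome. Mir409 lies in an intron of the noncoding RNA Mirg, and the annotation puts Mir299a, Mir380 and Mir376a outside other genes. Mir142b (ENSMUSG00000065420.2) spans chromosome 11, 87756841 to 87756955, across from Mir142 at 87756864 to 87756927 in an intron of Mir142hg. Mir497b (ENSMUSG00000070109.2) spans chromosome 11, 70234692 to 70234816, across from Mir497 at 70234717 to 70234800, outside other annotated genes. Both rows are on the minus strand. Gm24111 (ENSMUSG00000093232.1) spans chromosome 13, 48537825 to 48537921 on the plus strand, across from Mirlet7f-1 at 48537829 to 48537917, which overlaps an exon of the noncoding RNA 6720427I07Rik. In all 6 cases where the faced miRNA lies within another annotated gene, that gene is on the faced strand and not on the strand of the row.

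**Figure D1:**
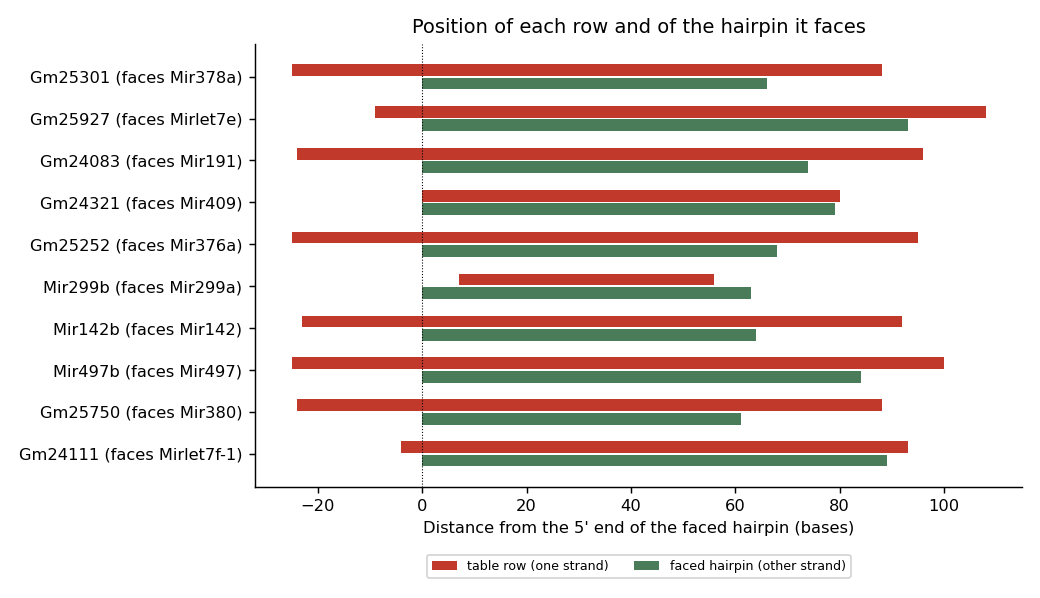
Each table row (red) and the hairpin it faces on the other strand (green), placed by distance in bases from the 5′ end of the faced hairpin. The row covers the whole hairpin in 9 of 10 cases, and Mir299b lies inside the hairpin of Mir299a.

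Of the 10 rows, 7 carry only a provisional Gm symbol and 3 carry a miRNA symbol ending in b. For these 3, RefSeq lists mature sequences on the strand of the row. They are shown with the stretch complementary to a mature sequence of the faced miRNA in capitals.
miR-142b: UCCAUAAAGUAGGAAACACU
miR-497b: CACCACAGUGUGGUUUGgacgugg
miR-299b-3p: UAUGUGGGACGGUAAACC
miR-299b-5p: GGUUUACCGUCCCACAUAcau
miR-142b, at chr11:87756906-87756925 (minus strand), is complementary over all 20 bases to part of miR-142a-3p. miR-497b, at chr11:70234763-70234786 (minus strand), is complementary over 17 bases to miR-497a-3p. Reads with these sequences would have counted on the strand of the row, where Mir142b had 0 reads in both libraries and Mir497b had 2 in replicate 1 and 0 in replicate 2.

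The Mir299 locus differed from the others in that its hairpin reads nearly the same on both strands. The hairpin of Mir299a and that of Mir299b are shown with the shared stretch of 21 bases, which each holds in 2 orientations, in capitals.
Mir299a: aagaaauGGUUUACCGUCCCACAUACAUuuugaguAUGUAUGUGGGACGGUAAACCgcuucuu
Mir299b: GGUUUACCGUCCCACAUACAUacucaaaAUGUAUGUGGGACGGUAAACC
Mir299a lies at chr12:109710638-109710700 (plus strand) and Mir299b at chr12:109710645-109710693 (minus strand). In the other 8 hairpins with a sequence, the longest stretch found on both strands was 6 to 14 bases. miR-299b-5p matches miR-299a-5p over 21 bases, so a read limited to that stretch fits both strands at the locus. How such reads were assigned is not known from the tables. The Mir299b row is 1 of the 2 members with any reads on its own strand, 2 in each library, against 3869 and 4336 on the opposite strand.

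The strand on which the reads lay was as sharp in these rows as in rows of other miRNAs, but reversed. Opposite-strand reads of the 10 rows numbered 214116 in replicate 1 and 183863 in replicate 2, against 4 and 2 reads on the rows' own strand. In 8 of the 10 rows the own strand had 0 reads in both libraries. For a count of 0, 3 reads per row and library were taken here as the limit. Taking 3 reads for the own strand, the opposite strand of Gm25301 was 52028-fold higher in replicate 1 and 43963-fold higher in replicate 2. For Gm24111, the lowest row, it was 201-fold and 136-fold higher. These folds follow from the 3 reads taken and are not measured ratios. The lowest share of reads on the opposite strand was 99.9% (exact 95% binomial interval 99.7 to 99.99%), in Mir497b of replicate 1. Intervals and limits reflect counting error alone, because without molecular identifiers PCR copies of a molecule count as separate reads.

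The 10 rows held 99.9% of all opposite-strand reads in each library, with exact 95% intervals of 99.84 to 99.88% in replicate 1 and 99.84 to 99.87% in replicate 2. For 1941 rows no faced hairpin was found, but 79 of them are not named by the annotation and could not be placed. The 1941 rows had 80 and 54 opposite-strand reads in all, or 20.8 and 15.8 for each 1000000 reads on their own strand. No such row exceeded 24 opposite-strand reads. Of the reads that the tables list as assigned to no gene on the own strand, the 10 rows accounted for 57.4% in replicate 1 and 51.7% in replicate 2.

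**Figure D2:**
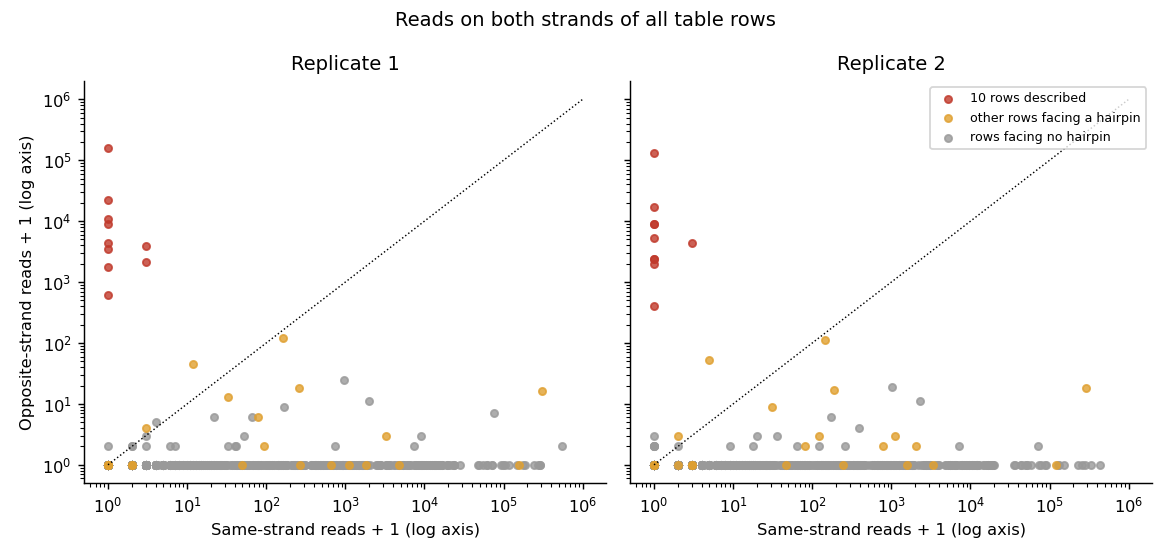
Opposite-strand reads against same-strand reads of every table row, both plus 1 on log axes, with 1 panel per library and a dotted line where the strands are equal. The 10 rows sit at 0 to 2 same-strand reads and 407 to 156083 opposite-strand reads, above all other rows.

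Facing a hairpin was not part of the rule. Among the 1894 rows that the annotation names, 32 (1.69%) face another annotated miRNA hairpin on the opposite strand, and all 10 members are among them. In all 32 cases the faced gene has no row of its own. Its identifier carries a number above that of every row in the tables, as do all 308 miRNA genes of GENCODE M21 that have no row. The other 22 facing rows held 220 and 210 opposite-strand reads in all, against 473926 and 417413 on their own strand. Mir126a, an endothelial miRNA, had 15 and 17 opposite-strand reads against 302625 and 288056 on its own strand, and Mir30e had 0 against 158737 and 119571. Mir126a and Mir30e held most of these own-strand reads. Of the opposite-strand reads, Mir3074-1 alone held 120 and 109. Since the rule took out the 10 facing rows with the most opposite-strand reads, the sums describe the rows that were left. Among these, Mir1b and Mir219a-2 had more reads on the opposite strand, Mir219a-2 with 3 and 2 against 2 and 1. The row covered the whole faced hairpin in 20 of these 22 cases and had a median length of 88 bases.

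Next to the thresholds of the rule, taking the smaller of the counts in the 2 libraries, the lowest member was Gm24111, with 604 and 407 opposite-strand reads, and the one above it was Gm25750, with 1743 and 2399. Just outside lay Mir3074-1, which faces Mir24-1 and had 120 and 109 opposite-strand reads against 161 and 143 on its own strand. It was the only row with at least 100 reads on each strand. Mir1b, which faces Mir1a-2, a miRNA of heart and skeletal muscle, had 45 and 51 opposite-strand reads against 11 and 4, more on the opposite strand but below 100. No row fell between 120 and 407 opposite-strand reads.

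**Figure D3:**
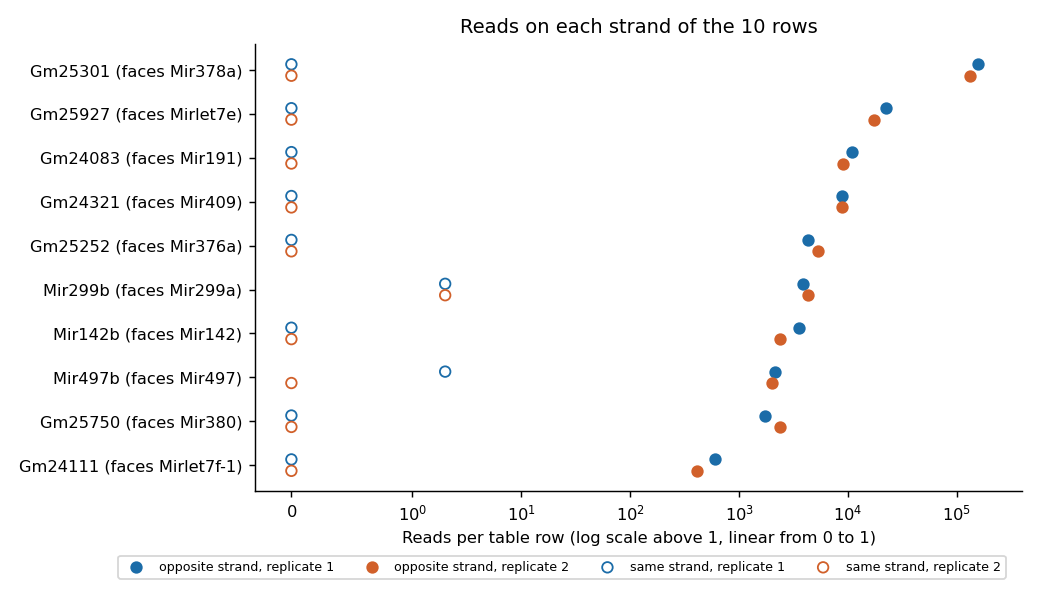
Reads on the opposite strand (filled) and on the row's own strand (open) for the 10 rows in each library, on an axis that is logarithmic above 1. Filled points run from 407 to 156083 reads and open points stay at 0 or 2.

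The predicted folding energy was not the lower one on the faced strand in every locus. Folding each faced hairpin and its complement with RNAfold gave a lower, more stable energy for the faced strand in 6 of 9 hairpins and for the row's strand in 3. These counts include hairpins with nearly equal energies. Mir142 had -26.9 kcal/mol on the faced strand and -26.8 on the row's strand, and Mir299a had -42.1 and -42.3. The median difference, row minus faced, was 2.9 kcal/mol. Mirlet7f-1 had the widest gap, with -29.2 kcal/mol on the row's strand and -43.1 on the faced strand. Mir497 went the other way, with -47.1 kcal/mol on the row's strand and -41.5 on the faced strand. Reads lay on the faced strand in both.

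Levels are given as opposite-strand reads per 1000000 reads on the own strand of all rows (CPM), so that they can be set beside other miRNAs. They are not divided by hairpin length, since each read of such a library is a whole short RNA. On this scale the 10 rows summed to 48680 ± 1130 CPM (SD, n = 2), or 4.87% ± 0.113 of the own-strand total, of which the row facing Mir378a held 72.3% ± 0.823. The other 9 rows together came to 13473 ± 87.8 CPM.

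Gm25301, the row facing Mir378a, had 156083 opposite-strand reads in replicate 1 and 131890 in replicate 2. That is 36068 CPM (exact 95% Poisson interval 35890 to 36248) and 34347 CPM (34161 to 34532), with a mean of 35207 ± 1218. Set among the own-strand values of all rows, it would rank 9 by the mean, 10 in replicate 1 and 9 in replicate 2. The rows nearest in level were Mirlet7i at 37535 ± 4115 CPM, whose range overlapped it, and Mir26b at 33998 ± 382, which lay below it in both libraries. It stood 7.06 times above the row facing Mirlet7e in replicate 1 and 7.60 times in replicate 2. The named relatives Mir378b, Mir378c and Mir378d, all with rows, had 7 to 95 reads per library and summed to 32.6 ± 2.97 CPM. Whether they share sequences with Mir378a was not checked, so reads that fit several of these loci may be missing from the values.

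Gm25927, facing Mirlet7e, had 22107 and 17347 opposite-strand reads, or 5109 and 4517 CPM (mean 4813 ± 418). Mirlet7e shares a primary transcript with Mir99b and Mir125a, and the values can be set beside theirs. Mir99b reached 16283 and 15343 CPM and Mir125a 3875 and 3151 CPM. The Mirlet7e value was 0.304 ± 0.0136 times that of Mir99b and 1.38 ± 0.0815 times that of Mir125a, so the order Mir99b, Mirlet7e, Mir125a held in both libraries.

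Among let-7 family members, which share the seed shown above and promote differentiation, Mirlet7e would take the 4th place of 12. Mirlet7g (41466 ± 2860 CPM), Mirlet7i (37535 ± 4115) and Mirlet7d (12845 ± 1963) lay above it and Mir98 (4188 ± 443) next below, at 4501 and 3875 CPM. Gm24111, facing Mirlet7f-1, had 604 and 407 opposite-strand reads, or 140 and 106 CPM (mean 123 ± 23.7). Of its transcript neighbours, Mirlet7d was 105 ± 4.32 times higher and Mirlet7a-1 lay below it at 84.9 ± 19.5 CPM. The 2 faced let-7 miRNAs together came to 4936 ± 442 CPM, beside 99521 ± 9957 CPM for the 10 let-7 rows, or 4.73% ± 0.0478 of both together. As noted for let-7f-5p, reads that fit several let-7 loci may be missing from these values.

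Gm24083, facing Mir191, had 10872 and 8955 opposite-strand reads, or 2512 and 2332 CPM (mean 2422 ± 127). Mir191 is a broadly expressed miRNA cut from the same transcript as Mir425, which had 1722 and 1677 CPM. The Mir191 value was 1.43 ± 0.0485 times that of Mir425 and was the higher in both libraries. The nearest rows by level were Mir181c (2719 ± 6.50 CPM) and Mir181d (2359 ± 123 CPM).

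Mir497b, facing Mir497, had 2130 and 2006 opposite-strand reads, or 492 and 522 CPM (mean 507 ± 21.3). Mir497 and Mir195a are cut from a shared transcript and carry the same seed, which is known for restraining the cell cycle. Mir195a had 472 and 486 CPM, so that the Mir497 value was 1.06 ± 0.0237 times that of its neighbour. The Mir497 value was the higher in both libraries, and the ranges did not overlap. Of the 6 listed relatives with this seed, Mir322 was the highest at 69474 ± 3573 CPM, 137 ± 1.28 times the Mir497 value, and the Mir16-2 row had 351 ± 39.6 CPM. Mir16-1 and Mir16-2 encode the same miR-16-5p, so reads of it fit 2 loci and may be missing from both rows.

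Mir142b, facing Mir142, had 3528 and 2387 opposite-strand reads, or 815 and 622 CPM (mean 718 ± 137). Mir142 is a miRNA of blood cells and is widely used as their marker. Its value exceeded that of each listed white blood cell miRNA in both libraries. It was 2.25 ± 0.155 times that of Mir223, a miRNA of the myeloid lineage with 345 and 290 CPM, and 6.20 ± 0.157 times that of Mir155, a miRNA of activated immune cells. Mir150, a lymphocyte miRNA, had 60 and 63 reads. Of the red blood cell miRNAs, Mir144 had 94.3 and 73.7 CPM, and Mir451a had 1090 and 415 CPM, above Mir142 in replicate 1 and below it in replicate 2. In a tissue sample, fewer cells of a type and less RNA per cell cannot be told apart.

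**Figure D4:**
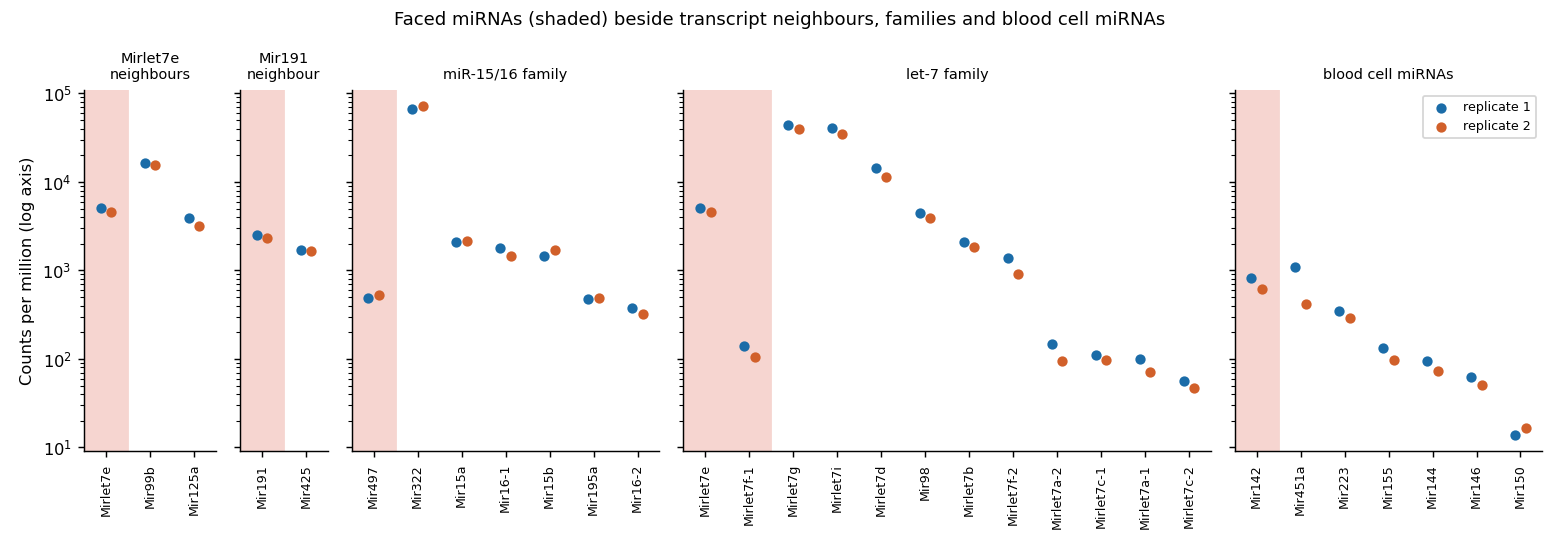
CPM on a log axis in each library for faced miRNAs (shaded, from opposite-strand reads) and for rows of their transcript neighbours, families or blood cell miRNAs (from own-strand reads). Mirlet7e lies between Mir99b and Mir125a, Mir191 above Mir425, Mir497 close to Mir195a and Mir142 above Mir223.

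The remaining 4 rows face miRNAs of the Dlk1-Dio3 locus. Gm24321, facing Mir409, had 8883 and 8819 opposite-strand reads, or 2053 and 2297 CPM (mean 2175 ± 172). Gm25252, facing Mir376a, had 4297 and 5317, or 993 and 1385 CPM (mean 1189 ± 277). Mir299b, facing Mir299a, came to 894 and 1129 CPM (mean 1012 ± 166). Reads limited to the stretch that the Mir299a hairpin holds in both orientations fit both strands. The Mir299a level, and its place and ratio below, are therefore uncertain. Gm25750, facing Mir380, had 1743 and 2399, or 403 and 625 CPM (mean 514 ± 157). All 4 were higher in replicate 2, and their order was the same in both libraries. Together they came to 4889 ± 773 CPM, beside 21521 ± 2589 CPM for 32 rows of the same cluster, or 18.5% ± 0.574 of both.

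Within that cluster the faced miRNAs lay near the top. By mean CPM only Mir487b (4830 ± 4.28), Mir411 (4394 ± 874) and Mir379 (2326 ± 574) of the 32 rows lay above Mir409, with 29 below. Mir376a had 6 rows above it, and Mir299a and Mir380 had 7 each. The members were selected for at least 100 reads, so a place in the upper part of the cluster follows in part from the rule. Mir382 (1178 ± 129 CPM) was the nearest row to Mir376a, and Mir154 (506 ± 146 CPM) the nearest below Mir380.

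In order of mean level the faced miRNAs ran Mir378a, Mirlet7e, Mir191, Mir409, Mir376a, Mir299a, Mir142, Mir380, Mir497 and Mirlet7f-1, a range of 287-fold. The first 4 were separated from each other and from the rest in both libraries, although Mir191 and Mir409 differed by a factor of 1.02 in replicate 2. The ranges of Mir376a and Mir299a overlapped, as did those of Mir142 and Mir380 and of Mir380 and Mir497. Of Mir142, Mir380 and Mir497, Mir380 had the smallest value in replicate 1 but the largest in replicate 2, so their order is not settled. Mirlet7f-1 lay below all others. Its value is uncertain because reads of let-7f-5p also fit Mirlet7f-2, and so is the range of 287-fold. By mean level 9 of the 10 would rank among the first 100 of all rows and 6 exceeded 1000 CPM, as 78 rows do on their own strand. High ranks follow in part from the rule's minimum of 100 reads, which 231 other rows reached on their own strand in both libraries.

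The ratio between the libraries was not part of the rule, although both libraries had to pass it. Of the 10 rows, 1 differed by more than 1.5-fold between libraries, against 5.19% of the 231 other rows with at least 100 own-strand reads in each. It was Gm25750, facing Mir380, at 1.55-fold higher in replicate 2 (exact conditional 95% interval 1.46 to 1.65). With TMM or median-of-ratios scaling it fell under that limit, at 1.48-fold and 1.43-fold. At a lower limit of 0.32 on the log2 scale 5 of 10 rows differed, against 26.4% of other rows, and at 2-fold 0 of 10, against 1.73%. With 5 rows higher in replicate 2 and 5 lower, beside 58.9% and 41.1% of other rows, the median ratio was 1.01 for the members and 1.05 for the 231.

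All 4 Dlk1-Dio3 rows were higher in replicate 2, by 1.12-fold for the row facing Mir409 (1.09 to 1.15), 1.26-fold for Mir299a (1.21 to 1.32), 1.39-fold for Mir376a (1.34 to 1.45) and 1.55-fold for Mir380. Of the 26 cluster rows with at least 100 reads in each library, out of 32 with a row and 33 listed, 22 were higher in replicate 2 and 4 lower, with a median ratio of 1.17 and a range of 0.914 to 1.95. Of the 231 rows, which include these 26, 58.9% were higher in replicate 2. Of the other 6 members only the row facing Mir497 was higher in replicate 2, at 1.06 (0.998 to 1.13), an interval that includes 1, and with median-of-ratios scaling it turned to 0.981. Its neighbour Mir195a had a ratio of 1.03 (0.965 to 1.10).

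Both rows facing let-7 miRNAs were lower in replicate 2, with ratios of 0.884 (0.867 to 0.902) for Mirlet7e and 0.759 (0.668 to 0.863) for Mirlet7f-1. All 10 let-7 rows were lower in replicate 2 as well, with a median ratio of 0.851 and a range of 0.644 to 0.907. Of the 231 rows, which include them, 41.1% were lower. The transcript neighbours of Mirlet7e had ratios of 0.942 (Mir99b) and 0.813 (Mir125a), and those of Mirlet7f-1 had 0.805 (Mirlet7d) and 0.721 (Mirlet7a-1). The row facing Mir142 had a ratio of 0.762 (0.724 to 0.803). All 5 blood cell miRNAs with at least 100 reads in each library were also lower in replicate 2, beside the same 41.1%. Their ratios ran from 0.381 for Mir451a to 0.840 for Mir223. Whether the amount of blood in the 2 hearts differed was not tested. The rows facing Mir378a and Mir191 had ratios of 0.952 (0.945 to 0.959) and 0.928 (0.903 to 0.955), and Mir425, the neighbour of Mir191, had 0.974 (0.942 to 1.01).

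**Figure D5:**
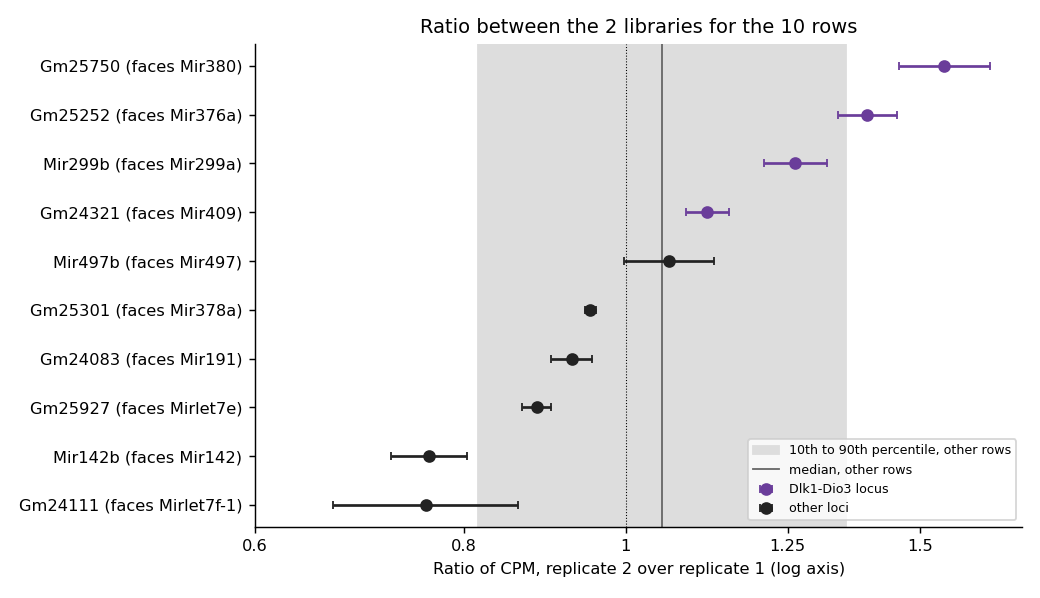
Ratio of CPM in replicate 2 over replicate 1 for the 10 rows, on a log axis, with exact 95% counting intervals. The grey band spans the 10th to 90th percentiles (0.816 to 1.35) of the 231 other rows with at least 100 reads and the grey line their median of 1.05. The 4 Dlk1-Dio3 rows lie between 1.12 and 1.55 and the other 6 between 0.759 and 1.06.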

How the data were processed

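Small RNA libraries from 2 embryonic mouse hearts, 1 group, were analysed from the deposited counts. The authors deposited whole-number read counts per miRNA row, both strands together and each strand alone, in build mm10 with GENCODE annotation M4 per the file descriptions, 1 table per library. The sources used here do not name the aligner or the counting program. Lines that name no gene (44.3% and 44.6% of reads) were left out of totals. No description names the strands. The strand column with the larger total (95.3% and 95.4% of row reads) was taken as the row's own strand and the other as the opposite strand. GENCODE M21 on the same assembly named 1894 of 1973 rows and gave coordinates, and a row faces a hairpin if the 2 overlap by at least 1 base on opposite strands.

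CPM is opposite-strand reads of a member, or own-strand reads of other rows, per 1000000 own-strand reads. For a count of 0, 3 reads were taken as the limit, or 0.693 and 0.781 CPM. Values are mean ± SD over 2 libraries, and intervals are exact Poisson or binomial (95%). With 1 group no test between groups exists and no p-value is given. The members and gene lists were chosen with earlier results of these data known. Named rows are the members, the miRNAs they face, listed neighbours and relatives, the rows nearest in mean CPM, rows next to the thresholds and cell type markers. Mir30e, Mir219a-2 and, as a row that faces a hairpin, Mir126a were chosen after their values were seen. Ratios and intervals were checked on simulated counts that varied by counting error alone. That check does not cover variation between hearts. Alternatives covered scaling (edgeR 4.0.16 TMM, DESeq2 1.42.0 size factors, other totals), count minimums, fold limits and leaving out each library. Python 3.11.15, numpy 2.4.6, pandas 2.3.3, scipy 1.17.1, matplotlib 3.10.9, R 4.3.3 and RNAfold 2.7.2 were used.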

Additional observations from a re-analysis of the deposited data

Results flagged for a closer look

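Outside the 10 members, 8 rows had more than 3 opposite-strand reads in both libraries. That is above the limit taken for a count of 0, in data that the comparisons do not use. Of these 8 rows, 5 face an annotated hairpin. Mir3074-1, facing Mir24-1, had 120 and 109 such reads, and Mir1b, facing Mir1a-2, had 45 and 51. Mir486, facing Mir3107, had 17 and 16, Mir126a, facing Mir126b, had 15 and 17, and Mir219a-1, facing Mir219c, had 12 and 8. The other 3 face no annotated hairpin. Mir203, a miRNA of epithelia, had 24 and 18 opposite-strand reads against 962 and 1009 on its own strand. Mir708 had 10 and 10, and Mir122 had 8 and 5. Their source was not tested.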

How the results depend on the processing

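The summed level of the 10 rows, 48680 CPM, was 46417 when scaled to the reads of both strands, 46420 when the members' reads were added to the total, and 55304 without the most abundant row in the total, each by construction of the total. With TMM (48711) or median-of-ratios factors (48749) it moved by less than the SD. Counting both strands of the row gave 48681, and leaving out each library gave 47881 to 49479. The rule gave 10 rows at minimums of 50 and 200 reads, at a 10-fold strand ratio and in each library alone, and 12 with no minimum. The other 9 rows held 27.6% of all opposite-strand reads, or 99.5% of those outside the row facing Mir378a, and the 10 rows held 99.86% in each library alone. The number of members past 1.5-fold between libraries was 1, against 0 with TMM and 0 with median-of-ratios factors, 5 at the lower limit (0.32 on the log2 scale) and 0 at 2-fold. Median-of-ratios factors moved all ratios by -0.11 (log2) and put Mir497 at 0.981, below 1, which left 4 members higher in replicate 2. The Dlk1-Dio3 rows remained at 1.03 to 1.43. Ranked against the larger strand of every row, 7 of 10 members fell among the first 100, against 9, and 8 to 9 with each library left out. The levels of single members moved by more than their SD with another total in 2 to 5 of 10, and with TMM or median-of-ratios factors in 0 of 10. Leaving out 1 of 2 libraries cannot move a mean by more than the SD, so that setting could not show a change. The same holds for counting both strands of the row, as the members had almost no own-strand reads. No paired analysis was possible because there is only 1 group. With 2 libraries the SD rests on 1 difference.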
